A study of Mus musculus with 12 samples.

Results

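The interaction of GW1516 with exercise training was measured in mouse quadriceps as the difference between 2 drug effects, the effect in trained mice minus the effect in sedentary mice. All 12 of the 12 arrays of the study enter it, placed by their titles into 4 groups of 3. The mice were of the C57Bl/6J strain, with no genetic change named. The vehicle group was sedentary and had vehicle, and the GW group was sedentary and had GW1516 at 5 mg/kg per day. The exercise group was trained and had vehicle, and the combination group was trained and had the same daily dose. Each treatment lasted 4 weeks. The sources used here give neither the age of the mice nor the form of training. RNA of 3 mice of a group was pooled for each array, so the p-values measure the spread between pools.

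The interaction is (combination minus exercise) minus (GW minus vehicle), on the log2 scale of the array signals. It is 0 where the effects of drug and training add up on that scale, that is, where they multiply on the scale of the signal. A negative value means that the combination arrays lay below the sum of the effects of drug and training alone, and a positive value that they lay above it. The study asks how a synthetic drug and exercise regulate muscle gene expression, and this contrast asks whether the drug moved trained muscle as it moved sedentary muscle.

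GW1516 binds PPARδ, a nuclear receptor that pairs with a retinoid X receptor and switches on genes for the uptake, transport and oxidation of fatty acids. In skeletal muscle PPARδ is best known for favouring fat over glucose as fuel. Exercise reaches some of the same genes through kinases and coactivators, and it also sets off a short burst of immediate early and heat shock genes in the working muscle.

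The 6 muscle markers, among them Ckm and Acta1, had mean signals between 17325 and 20776, near the top of the arrays' range. The median signal of an array lay between 48.4 and 57.2, and the 15 Bacillus control probe sets, which stand for background, had a median signal of 3.43. Among the 12 arrays, 2 stood apart from the rest of their own group. GW array 1 had the stretch-responsive genes Ankrd2, Ankrd1 and Csrp3 at signals of 2388, 1296 and 1470, against at most 306 for any of these genes on the other 11 arrays. Combination array 1 lacked the high fat cell markers of arrays 2 and 3 (mean log2 signal of 8 markers 8.42 against 9.80 and 10.3). The arrays of the other groups lay between 8.24 and 8.72, so combination arrays 2 and 3 were the ones outside that range. Combination array 1 also had more heat shock RNA (mean log2 signal of 10.5 against 9.80 and 9.57), near the exercise arrays (10.4 each). For the single comparisons behind the interaction, GW minus vehicle passed the threshold (limma, Benjamini-Hochberg adjusted p under 0.05) at 10 probe sets upwards (0.0737%) and 3 downwards (0.0221%), and combination minus exercise at 13 (0.0958%) and 9 (0.0663%). Exercise minus vehicle passed at 1 in each direction (0.00737% each), and combination minus vehicle at 20 (0.147%) and 1 (0.00737%). Medians of gene lists are also given without each of these 2 arrays where that turned the sign or moved the median by over 1.5 times.

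No interaction passed the threshold among the 13575 probe sets tested (0% called higher and 0% lower, limma, Benjamini-Hochberg adjusted p under 0.05). The smallest adjusted p was 0.102. Unadjusted, 922 probe sets (6.79% of those tested) had a p under 0.05, where 678.75 would be 5%. Of these, 430 were positive (3.17%) and 492 negative (3.62%). The median interaction was -0.01, with 6636 positive and 6939 negative values. With 3 arrays per group precision was limited: the median standard error of an interaction was 0.29 on the log2 scale, against 0.21 for GW minus vehicle, and the median 95% interval reached 0.63 to either side, a factor of 1.55. An interaction of 1.5-fold was therefore within the interval of most probe sets.

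Probe sets were put into classes by that interval. Additive, an interval wholly within 1.5-fold either way (0.58 on the log2 scale), held 3325 probe sets (24.5%). Another 9379 (69.1%) were not resolved, with an interval that included 0 and reached past 1.5-fold. The widest bound inside the additive class was 0.5848 and the narrowest outside it was 0.5851. Less than additive, where the interaction opposed a sum of single effects of at least 1.5-fold, held 510 (3.76%), and more than additive held 0 (0%). Reversed, where the drug effects in sedentary and trained mice had opposite signs and were both at least 1.5-fold, held 72 (0.53%). The remaining 289 (2.13%) had an interval that excluded 0 but a sum of single effects under 1.5-fold, and are called other.

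The classes followed signal. With the probe sets split by mean signal into 4 bins of like size, 69.7% of the brightest bin were additive and 0% of the dimmest. The 72 reversed probe sets lay low, with a median signal of 40.5, and 56 of them were in the dimmest bin. The classes also inherit a bias from the design, since the vehicle, GW and exercise arrays enter the sum of single effects and the interaction with opposite signs. Noise alone gives the sum of single effects and the interaction a correlation of -0.82, which favours less than additive over more than additive. The average of both drug effects has a correlation of 0 with the interaction, so choosing genes on that average does not bias the estimate of their interaction. Both contrasts share 1 estimate of spread per probe set, so a choice on adjusted p favours small spreads, and with them narrow intervals and small interaction p-values. The split of such genes into less and more than additive still uses the sum of single effects and keeps its bias.

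Across all 13575 probe sets the drug effects in sedentary and in trained mice had a correlation of 0.01. This is a description across probe sets, which share arrays and are not independent replicates. The GW and vehicle arrays did not overlap at 11% of probe sets, and the combination and exercise arrays did not at 15.8%. Both held, in the same direction, at 1.16%, and in opposite directions at 0.678%.

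**Figure D1:**
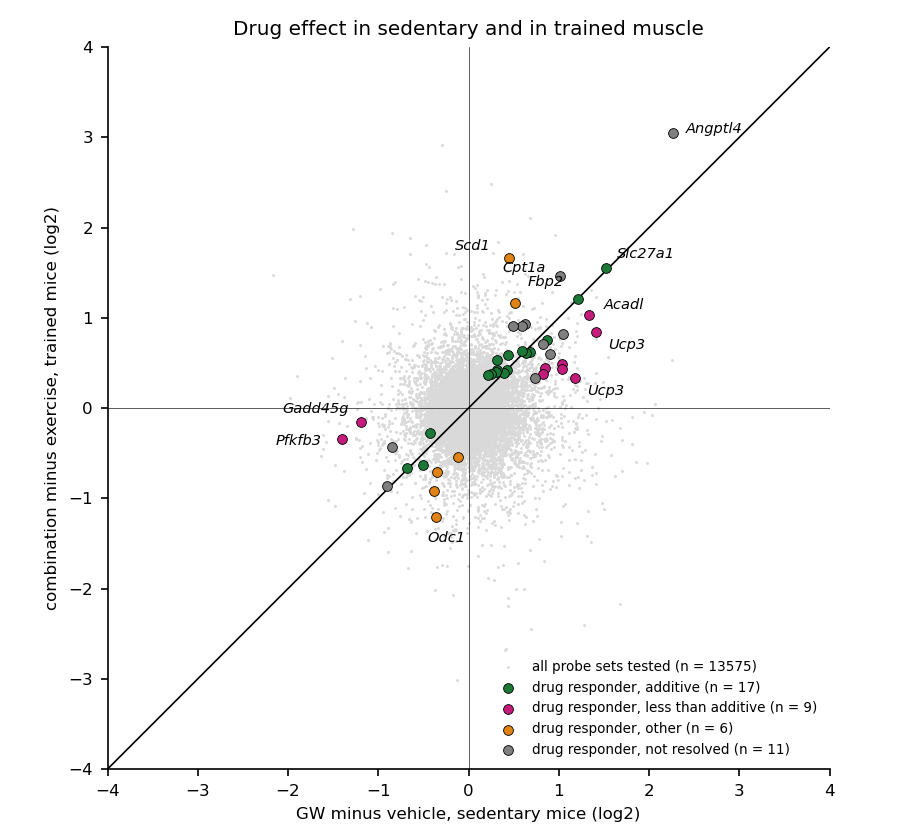
Each point is a probe set, with the drug effect in sedentary mice (GW minus vehicle, log2) on the horizontal axis and in trained mice (combination minus exercise, log2) on the vertical axis; the diagonal marks equal effects. The 43 drug responders, coloured by class, all lie in the lower left or upper right of the plot, where both effects share a sign, 21 with the larger effect in trained and 22 in sedentary mice, and the grey cloud of all 13575 probe sets shows no slope (correlation 0.01).

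The drug effect averaged over sedentary and trained mice passed the threshold at 43 probe sets (0.317%), 32 higher (0.236%) and 11 lower (0.081%), from 36 named genes. All 43 had the same sign in both kinds of mice, which a choice on the average of both effects favours. The effect was larger in trained mice at 21 and larger in sedentary mice at 22. With the sign turned so that a negative value means a smaller effect in trained mice, their median interaction was -0.00, with quartiles of -0.30 and 0.27. By class 17 were additive, 9 less than additive, 6 other, 11 not resolved and 0 reversed. At an unadjusted p under 0.05 there were 16 (37.2%, against 6.79% of all), 9 with a smaller and 7 with a larger effect in trained mice. Their median standard error of 0.21 was below the 0.29 of all probe sets, which a choice on adjusted p favours, so the 2 percentages are not on equal terms. The near balance depended on single arrays, in both directions. Without combination array 1, 74 probe sets passed, 74.3% of them with the larger effect in trained mice and a median turned interaction of 0.35. Leaving out each of 5 others gave fewer responders and a smaller share: 30% of 20 without combination array 2, 37.5% of 24 without combination array 3, 35.7% of 28 without exercise array 3, 36.4% of 22 without GW array 3 and 38.1% of 21 without vehicle array 2. Leaving out each of the remaining 6 moved the share by less than 10 percentage points.

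Of the 43, 18 belonged to the lists of PPAR targets and mitochondrial fatty acid oxidation. All 18 were higher with the drug. Their effect was smaller in trained mice at 11 and larger at 7, with a median turned interaction of -0.17. Of these 18, 7 were additive, 7 less than additive and 4 not resolved.

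**Figure D2:**
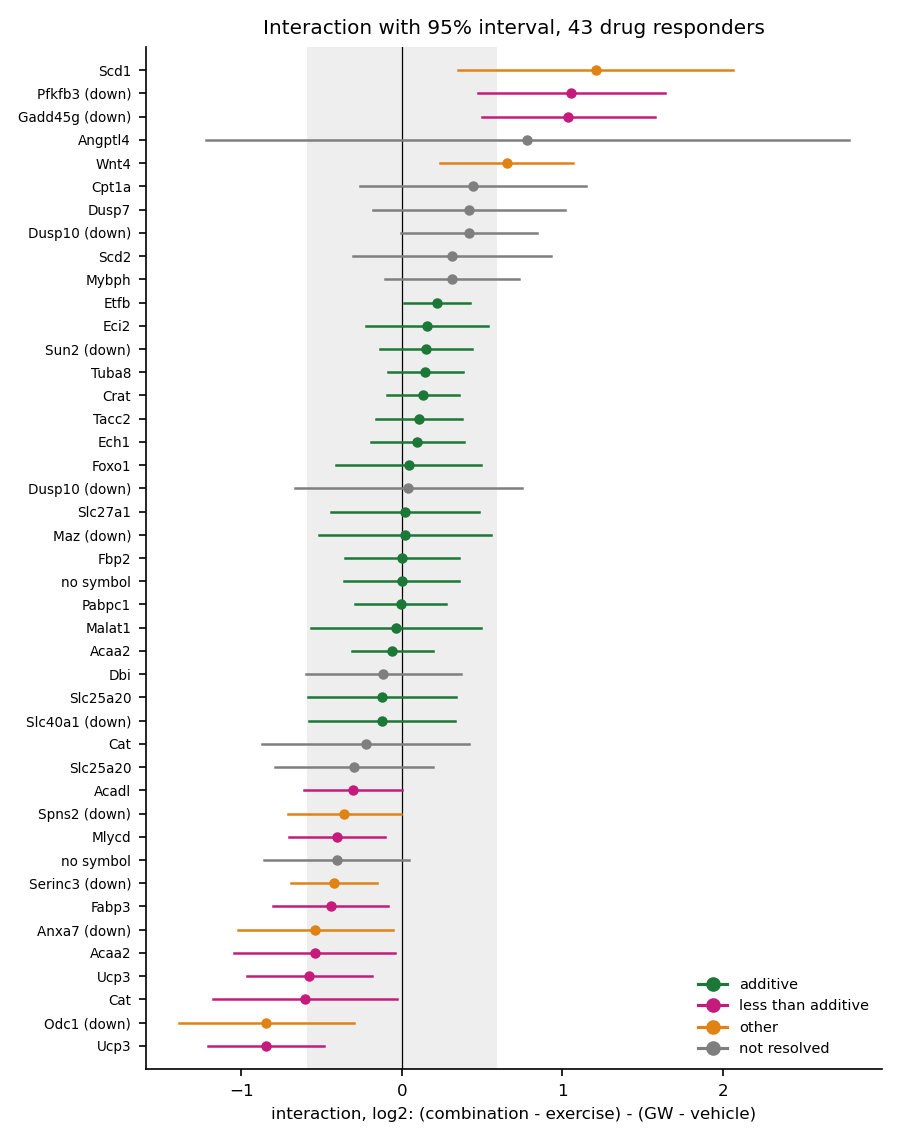
Interaction (point) with its 95% interval (line) on the log2 scale for the 43 drug responders, ordered by value; "down" marks responders lower with the drug, for which a positive interaction is a smaller fall in trained mice. The grey band spans 1.5-fold either way: the 17 additive intervals lie inside it, and Ucp3, Odc1, Gadd45g, Pfkfb3 and Scd1 lie farthest from 0 among intervals that exclude it.

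The additive responders included Slc27a1, Fbp2 and, in its brightest probe set, Acaa2. Slc27a1 encodes a fatty acid transport protein of the plasma membrane. Its signals were 95.3, 126 and 125 with vehicle, 342, 329 and 319 with GW, 122, 146 and 157 with exercise, and 364, 431 and 442 with the combination. Every treated array lay above every untreated one. The drug raised it 2.88-fold in sedentary and 2.92-fold in trained mice (limma adjusted p of 0.000181 and 0.000206), and the interaction was 0.02 (95% interval -0.44 to 0.48).

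Fbp2, the muscle form of fructose-bisphosphatase, runs a step of glycolysis backwards. It read 545, 741 and 611 with vehicle and 1288, 1541 and 1528 with GW. In trained mice it read 725, 831 and 749 without the drug and 1687, 1919 and 1720 with it. Both pairs of groups were fully apart, each by 2.31-fold, and the interaction was 0.00 (-0.35 to 0.35).

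Acaa2, the last enzyme of mitochondrial fatty acid oxidation, kept the same pattern in its brightest probe set, with mean signals of 604 with vehicle, 969 with GW, 732 with exercise and 1125 with the combination. Its interaction was -0.06 (-0.31 to 0.19). A dimmer probe set of Acaa2 gave -0.54 (-1.05 to -0.04) and the remaining one gave 0.40 (-0.28 to 1.08), so the probe sets of this gene differed.

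Ucp3, a mitochondrial carrier of muscle that is induced when fatty acids are plentiful, had the smallest interaction p among the responders. The stronger of its 2 probe sets read 723, 549 and 635 with vehicle, 1623, 1220 and 1468 with GW, 1049, 1105 and 953 with exercise, and 1253, 1298 and 1354 with the combination. The combination arrays were above the exercise arrays, but within the range of the GW arrays. GW raised the signal 2.26-fold in sedentary mice (adjusted p 0.000181), and in trained mice the ratio was 1.26 (adjusted p 0.414).

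The 2 single effects of Ucp3 together would have given 3.70-fold over vehicle, and the combination stood at 2.06-fold. The interaction was -0.84 (-1.20 to -0.48, unadjusted p 0.000162, adjusted p 0.275). The second probe set gave -0.58 (-0.97 to -0.18). Leaving out any 1 array moved the first between -0.96 and -0.74 and the second between -0.70 and -0.43, always negative.

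Pdk4, the kinase that shuts off pyruvate dehydrogenase and spares glucose, was a PPAR target of the same form, though its average drug effect missed the threshold (adjusted p 0.0732). Its signals were 2074, 1229 and 1284 with vehicle and 5335, 2714 and 2954 with GW. They were 2395, 3310 and 2750 with exercise and 2932, 3876 and 3604 with the combination. The GW arrays cleared the vehicle arrays, while combination and exercise arrays overlapped. The interaction was -0.93 (-1.63 to -0.23, adjusted p 0.707), and -0.63 without GW array 1, the highest array.

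Fabp3 carries fatty acids through the cytosol of muscle. It read 3048, 2420 and 2195 with vehicle, 5221, 3946 and 4359 with GW, 3288, 3886 and 3635 with exercise, and 4506, 4890 and 4653 with the combination. Each drug group was above its control, and the trained control was above the sedentary one. The interaction was -0.44 (-0.80 to -0.08, adjusted p 0.718).

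Mlycd, malonyl-CoA decarboxylase, relieves the block on fatty acid entry into mitochondria. Its signals were 498, 482 and 478 with vehicle, 881, 818 and 935 with GW, 604, 587 and 719 with exercise, and 880, 879 and 837 with the combination. The 2 drug groups overlapped, each above its control, and the interaction was -0.40 (-0.70 to -0.10, adjusted p 0.707). Acadl, long-chain acyl-CoA dehydrogenase, rose in both kinds of mice, 2.53-fold and 2.05-fold, with an interaction of -0.31 whose interval just excluded 0 (unadjusted p 0.0497).

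Ucp3, Pdk4, Fabp3 and Mlycd thus had combination signals near those of GW alone: the combination differed from GW by -0.13, -0.02, 0.06 and -0.02 on the log2 scale. Acadl differed from it by 0.01. For Slc27a1 and Fbp2 the same difference was 0.32 and 0.29, near their training effects of 0.30 and 0.29.

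Over the whole list of PPAR targets, 24 of 32 members were tested. Positive interactions numbered 8 and negative ones 16, with a median of -0.13 beside 0.01 over all 7940 genes with 1 probe set each. Without GW array 1 the list's median was -0.05, and with the mean of the fat cell markers as a covariate (the fat cell score) it was -0.23. At an unadjusted p under 0.05 there were 7 (29.2%, against 7% of all genes), 5 negative and 2 positive. The positive ones were Plin2, which coats lipid droplets, at 0.65, and Creb3l3, a factor mainly of liver, at 1.249. The median drug effect of the list was 0.75 in sedentary and 0.42 in trained mice. By class 8 were additive, 6 less than additive, 1 other and 9 not resolved.

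Mitochondrial fatty acid oxidation, with 22 of 24 members tested, was mostly additive: 18 additive, 2 less than additive and 2 not resolved. The median interaction was 0.05, and the median drug effects were 0.25 in sedentary and 0.24 in trained mice. The median interaction was 0.09 without GW array 1 and without combination array 1, and -0.02 both over all probe sets of the list and with the fat cell score. Acadm, the medium-chain dehydrogenase, had an interaction of 0.20 (-0.04 to 0.43). Etfb, a subunit of the flavoprotein that takes electrons from these dehydrogenases, rose in trained mice (adjusted p 0.00327), and its interaction of 0.22 was additive by class although its interval excluded 0 (0.01 to 0.43).

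Cpt1a, a carnitine palmitoyltransferase of the outer mitochondrial membrane, was not resolved. It read 63.2, 58.9 and 58.3 with vehicle, 97.98, 143 and 128 with GW, 53.5, 48.3 and 82.5 with exercise, and 152, 150 and 195 with the combination. Both drug groups lay above their controls, by 2.02-fold and 2.75-fold, and the interaction was 0.44 (-0.26 to 1.14), and 0.29 without GW array 1. Angptl4, a secreted inhibitor of lipoprotein lipase and a strong PPAR target, had the largest average drug effect but scattered controls of 92.2, 37.9 and 20.1 with vehicle and 80.7, 42.5 and 9.01 with exercise. The drug groups read 304, 145 and 177 (GW) and 156, 342 and 328 (combination), above their controls in both cases. Its interaction of 0.78 spanned -1.22 to 2.78, and without exercise array 3 it was -0.12.

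**Figure D3:**
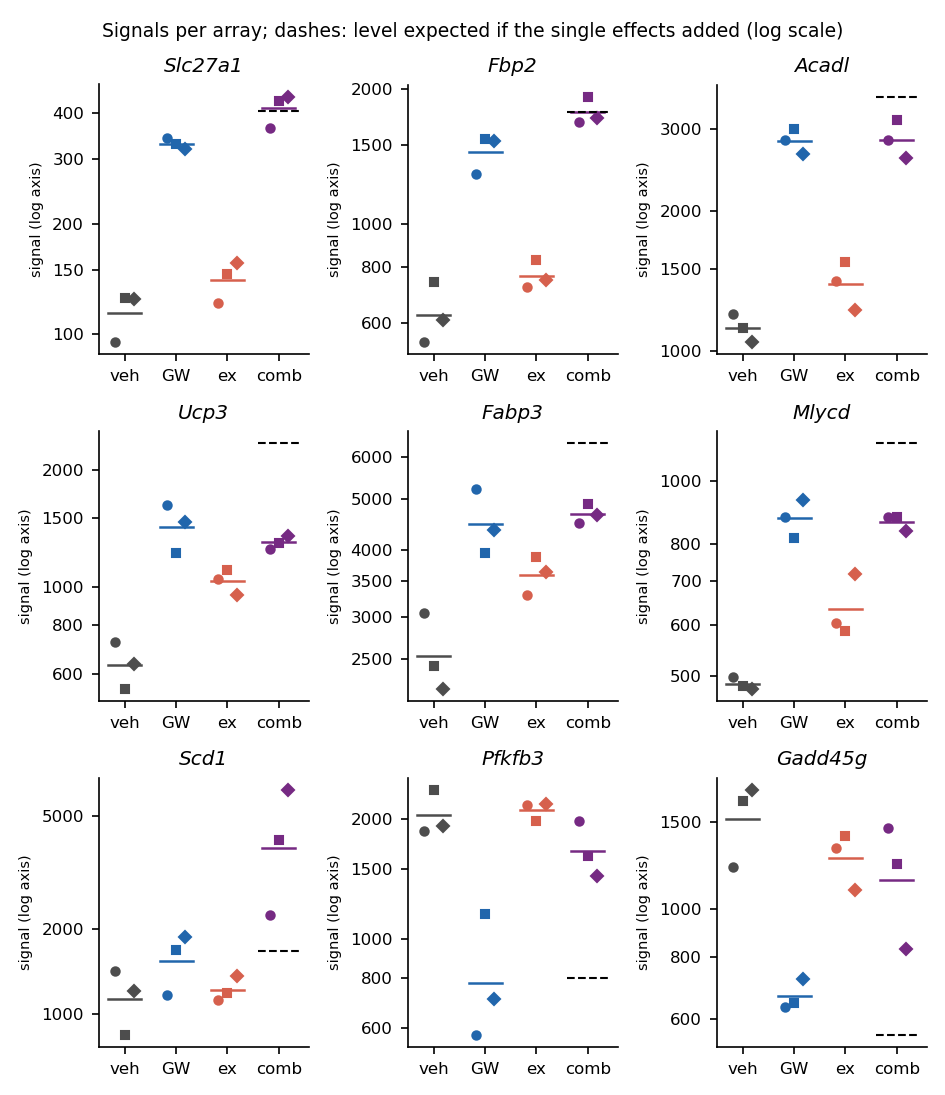
Signals of 9 genes on log axes, 1 point per array (circle, square and diamond for arrays 1, 2 and 3; veh, vehicle; ex, exercise; comb, combination), with bars at the group means of the log2 signals and dashes at the level the combination would have if the single effects added on the log2 scale. Combination bars meet the dashes for Slc27a1 and Fbp2, lie below them for Acadl, Ucp3, Fabp3 and Mlycd, and above them for Scd1, Pfkfb3 and Gadd45g.

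Among the responders that were lower with the drug, Pfkfb3 and Gadd45g had the smaller fall in trained mice. Pfkfb3 makes fructose 2,6-bisphosphate, an activator of glycolysis. Its signals, in the probe set that passed the drug test, were 1873, 2375 and 1930 with vehicle, 574, 1157 and 707 with GW, 2169, 1982 and 2186 with exercise, and 1982, 1615 and 1443 with the combination. GW arrays were far below vehicle arrays, while combination arrays overlapped exercise arrays. In sedentary mice it fell to 0.38 of vehicle (adjusted p 0.00529), and in trained mice the ratio was 0.79 (adjusted p 0.634).

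The interaction of Pfkfb3 was 1.06 (0.47 to 1.64, adjusted p 0.494). The other probe set of Pfkfb3 gave 0.20 (-0.46 to 0.86), with drug effects of -0.08 and 0.12, so it did not show the fall. Without GW array 2 the first probe set was called, at 1.34 (adjusted p 0.0495).

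Gadd45g, a stress and growth arrest gene that denervation also induces, read 1215, 1651 and 1738 with vehicle and 633, 647 and 722 with GW. With exercise it read 1324, 1401 and 1094, and with the combination 1454, 1232 and 831. It fell to 0.44 of vehicle in sedentary mice (adjusted p 0.0112), and the ratio in trained mice was 0.90, with overlapping arrays. The interaction was 1.04 (0.50 to 1.58, adjusted p 0.451), and 0.86 without combination array 1. Dusp10, a phosphatase of stress kinases, was lower in both kinds of mice, by 0.90 and 0.86 on the log2 scale, and its interaction of 0.04 (-0.66 to 0.75) was not resolved.

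Of the 21 responders with the larger effect in trained mice, 7 had an unadjusted p under 0.05: Scd1, Wnt4, Etfb, Odc1, Anxa7, Serinc3 and Spns2. Wnt4, a secreted signalling protein, read 353, 444 and 470 with vehicle, 499, 657 and 648 with GW, 291, 266 and 247 with exercise, and 584, 637 and 575 with the combination. Exercise arrays were the lowest, and both drug groups lay together at the top. The drug effect was 1.42-fold in sedentary mice (adjusted p 0.444) and 2.24-fold in trained mice (adjusted p 0.00161), with an interaction of 0.65 (0.24 to 1.07, adjusted p 0.659).

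Odc1, ornithine decarboxylase, starts polyamine synthesis. It read 822, 558 and 514 with vehicle, 563, 459 and 431 with GW, 702, 866 and 923 with exercise, and 338, 311 and 436 with the combination, in the probe set that passed the drug test. It fell to 0.43 of exercise in trained mice (adjusted p 0.00948) with no overlap, while GW and vehicle arrays overlapped. The interaction was -0.84 (-1.39 to -0.30, adjusted p 0.659), and its other probe sets gave -0.34 and -0.33. Mybph, a myosin binding protein, rose in trained mice by 0.93 (adjusted p 0.00948), with an interaction of 0.31 (-0.10 to 0.73).

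Scd1 makes monounsaturated fatty acids and is abundant in fat cells. Its signals were 1420, 844 and 1209 with vehicle, 1170, 1681 and 1880 with GW, 1123, 1184 and 1362 with exercise, and 2235, 4115 and 6193 with the combination. All combination arrays were above all others, and arrays 2 and 3, with the high fat cell markers, were the highest. The interaction was 1.21 (0.35 to 2.06, adjusted p 0.707). With the fat cell score as a covariate it was 0.50, and without combination array 1 it was 1.5999.

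The fat cell markers themselves had the most positive median interaction of the 21 lists, 0.90, with 7 of 8 positive and 1, the apolipoprotein gene Apoc1 at 1.84, at an unadjusted p under 0.05 (12.5%, against 7% of all genes). Without combination array 1 the median was 1.55. Adipoq, the fat cell hormone adiponectin, read 331, 210 and 365 with vehicle, 248, 346 and 363 with GW, 283, 338 and 334 with exercise, and 270, 1049 and 1471 with the combination. Only combination arrays 2 and 3 stood out, and the groups overlapped. In such pooled tissue more fat cells and more RNA per fat cell cannot be told apart. The interaction of Adipoq was 1.13 (-0.17 to 2.43), and without combination array 1 it was called at 1.87 (adjusted p 0.0484). With the fat cell score as a covariate, of which Adipoq is a part, it was 0.00.

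Lipid synthesis moved with these markers: 16 of 18 members tested had a positive interaction, with a median of 0.40, and 2, Scd1 and Srebf1, had an unadjusted p under 0.05 (11.1%, against 7% of all genes). With the fat cell score as a covariate the median was 0.01, and without combination array 1 it was 0.65. Fasn, fatty acid synthase, read 201, 91.7 and 131 with vehicle, 225, 271 and 293 with GW, 180, 218 and 179 with exercise, and 291, 847 and 1543 with the combination. Drug arrays were above control arrays in both kinds of mice, most of all combination arrays 2 and 3. Its interaction of 0.96 (-0.32 to 2.24) became -0.15 with the covariate and 1.62 without combination array 1. The part of fat tissue in these values beyond that covariate was not tested.

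Srebf1, the factor that switches on lipid synthesis, differed in that combination array 1 was its highest, not its lowest, combination array. It read 859, 923 and 890 with vehicle, 508, 1126 and 1162 with GW, 787, 591 and 655 with exercise, and 1290, 1081 and 1051 with the combination. The exercise arrays lay below both vehicle and combination arrays. Its interaction of 0.78 (0.09 to 1.48, adjusted p 0.727) was 0.85 with the fat cell score as a covariate and 0.39 without GW array 1, its lowest array.

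A second group of interactions came from genes that were high with training alone and low again with the combination. Exercise arrays above vehicle arrays and combination arrays below exercise arrays were found at 2.49% of all probe sets, and the opposite order at 2.3%. Among the 21 immediate early genes tested of 29 listed, 19 had a negative interaction, with a median of -0.62, and 7 (33.3%, against 7% of all genes) had an unadjusted p under 0.05, all negative. The median was -0.37 without GW array 1 and -0.29 with the fat cell score as a covariate. The 7 were Egr1, Fos, Nr4a2, Ccn1, Dusp1, Btg2 and Ier5. Their median training effect was 0.85 without the drug and 0.41 with it, over the 21.

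Egr1, a transcription factor induced within minutes of a stimulus, read 85.3, 57.9 and 78.7 with vehicle, 192, 59.8 and 79.1 with GW, 794, 869 and 937 with exercise, and 414, 96.4 and 61.8 with the combination. The exercise arrays formed a tight high group, and combination arrays 2 and 3 were back within the sedentary range. Training without the drug raised it 11.8-fold (adjusted p 0.0469). The interaction was -3.09 (-4.68 to -1.49, adjusted p 0.451), and the combination stood at 1.85-fold over vehicle where the single effects together gave 15.7-fold.

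Fos, the partner of Jun in the AP-1 factor, read 49.3, 54.2 and 48.3 with vehicle, 111, 23.6 and 37.6 with GW, 900, 872 and 1127 with exercise, and 460, 92.5 and 39.2 with the combination. As for Egr1, the exercise arrays were far above all others and combination arrays 2 and 3 were within the sedentary range. Its interaction was -2.89 (-4.87 to -0.90, adjusted p 0.703).

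Dusp1 switches off MAP kinases. It read 519, 448 and 690 with vehicle, 743, 559 and 500 with GW, 1051, 1067 and 1115 with exercise, and 669, 400 and 394 with the combination. The exercise arrays were above all other arrays, and the drug lowered Dusp1 in trained mice to 0.44 (adjusted p 0.0264). Its interaction was -1.31 (-1.92 to -0.70, adjusted p 0.404).

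In these 3 genes combination array 1 was the highest of its group. Without it the interactions were -3.89 for Egr1 (adjusted p 0.00886), -3.86 for Fos (0.0512) and -1.56 for Dusp1 (0.0360), so Egr1 and Dusp1 passed. Egr1 also passed on the linear scale (adjusted p 0.0498). With the fat cell score as a covariate they were -1.88, -1.30 and -0.94. Within groups that score varied mainly among the combination arrays (8.42, 9.80 and 10.3, against 8.24 to 8.72 elsewhere). The covariate fit therefore leans on combination array 1 against arrays 2 and 3, here and for the other genes and lists. The sources used here do not say how long after the last bout of exercise each muscle was taken.

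Since these genes moved together, their promoters were searched for 2 sites through which such genes are known to be switched on, in RefSeq windows from 250 bases before to 50 bases after the gene start (GRCm38.p6, both strands). The cAMP response element TGACGTCA, which binds CREB, was found in 2 of the 18 genes with a promoter window, Dusp1 and Btg2, and in 1.79% of all 32851 windows. The serum response element was searched in 1 exact form only, ATATTA with CC before it and GG after it. That form was found in 0 of 18 and in 0.0639% of all. A sequence this rare, searched in this window only, cannot tell whether these genes hold the element in another form or outside the window. The stretches around the CREB sites are shown because both genes had an interaction with an interval below 0, with the motif in capitals.
Dusp1, chr17:26508590-26508633, minus strand: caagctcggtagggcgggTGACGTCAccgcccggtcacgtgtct
Btg2, chr1:134079296-134079339, minus strand: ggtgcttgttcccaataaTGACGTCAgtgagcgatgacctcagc
The match begins 143 bases before the start of Dusp1 and 166 before that of Btg2. Btg2, which restrains cell division, had mean signals of 140 with vehicle, 157 with GW, 342 with exercise and 224 with the combination, and an interaction of -0.81 (unadjusted p 0.0465). A match is a sequence and does not show binding.

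Heat shock chaperones, which refold damaged proteins, had the same direction. Of 19 tested of 22 listed, 15 were negative, with a median of -0.42, and 4 (21.1%, against 7% of all genes) had an unadjusted p under 0.05, all negative. The median was -0.25 without GW array 1, and -0.25 with the fat cell score as a covariate. Hspa1b, the inducible Hsp70, read 166, 107 and 40.7 with vehicle, 213, 60.4 and 239 with GW, 1370, 1520 and 1595 with exercise, and 1939, 208 and 50.7 with the combination in 1 of its probe sets. Combination array 1 was the highest of all 12 arrays and arrays 2 and 3 lay within the sedentary range. The interaction was -3.15 (-5.93 to -0.36, adjusted p 0.727), and -4.56 without combination array 1 (adjusted p 0.104). Without that array 2 other probe sets of Hspa1b passed, at -4.67 (adjusted p 0.00886) and -3.97 (0.0484), and so did Hspa1a at -3.34 (0.0117). With the fat cell score as a covariate the first probe set gave -1.08. Its near-identical neighbour Hspa1a may share probes with it.

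Hspb1, a small chaperone abundant in muscle, read 4902, 4105 and 3724 with vehicle, 13814, 3892 and 5403 with GW, 7703, 8295 and 9022 with exercise, and 7491, 5164 and 4880 with the combination. GW array 1 was above every other array. The interaction was -1.19 (-2.14 to -0.24), and -0.66 without GW array 1. Hsp90aa1, with an interaction of -0.87 (-0.26 with the fat cell score), and Hspb8, with -0.59 in its brightest probe set, were the other 2.

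Dnajb1, the cochaperone of Hsp70, shows how far 1 array can carry such a value. It read 868, 853 and 1089 with exercise and 1697, 224 and 121 with the combination, so combination array 1 lay above and arrays 2 and 3 below every exercise array. Its interaction was -0.44 (-2.32 to 1.43), -1.57 without combination array 1, and 1.23 with the fat cell score as a covariate. The heat shock element, searched as GAA, TTC and GAA with 2 bases between each, was in 3 of 16 promoter windows of the list, those of Hspd1, Hspe1 and Hsph1, and in 0.603% of all windows. The first 2 share 1 stretch of chromosome 1, since the genes start close together on opposite strands, and the brighter probe sets of Hspd1 and Hspe1 were additive, at -0.19 and -0.25. The 2 probe sets of Hsph1 gave -0.72 (-1.30 to -0.14) and -0.42 (-0.85 to 0.01). The exact direct repeat of AGGTCA with 1 base between, a form of the PPAR site, was in 0 of 29 windows of drug responders and in 0.0396% of all. It is too rare to tell whether responders hold other forms of the site, and sites outside the window were not searched.

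**Figure D4:**
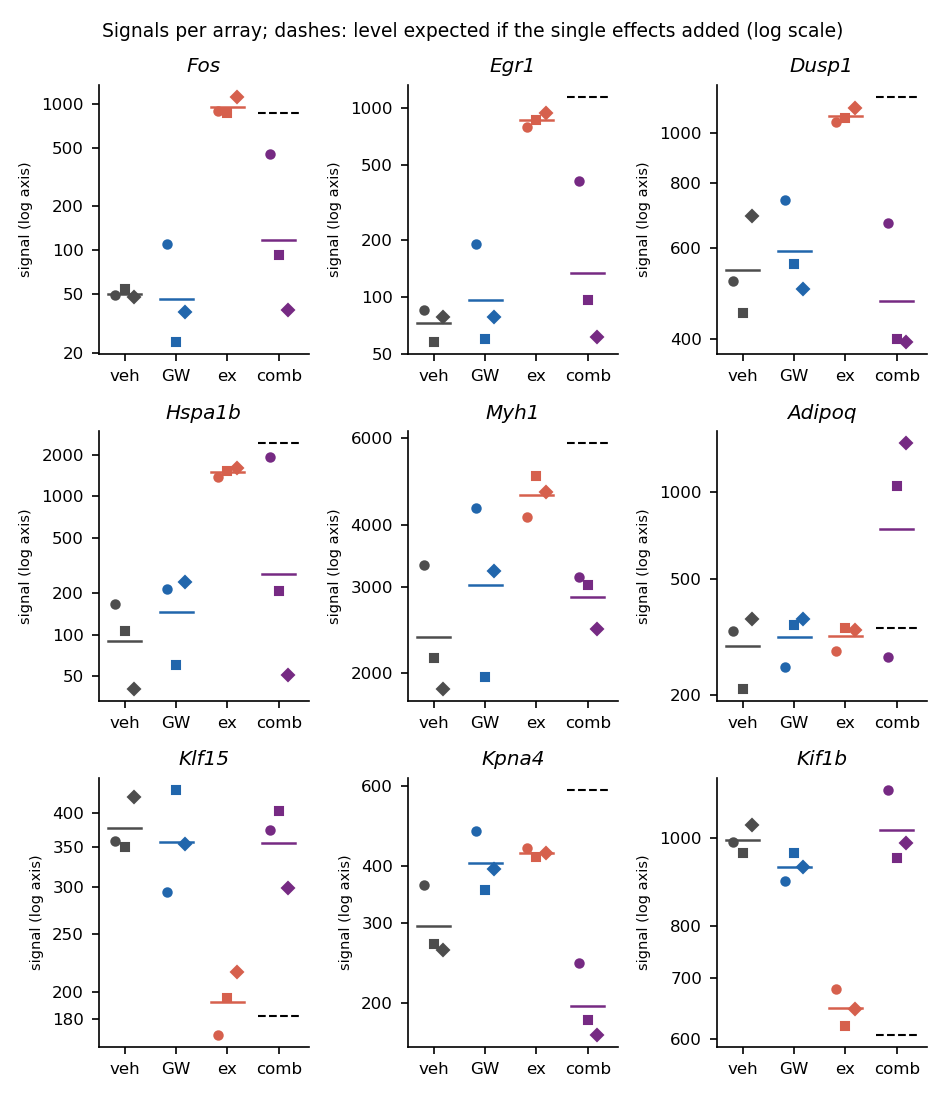
Signals of 9 genes on log axes, drawn as in the plot of the drug genes (veh, vehicle; ex, exercise; comb, combination; dashes, the level if the single effects added). Exercise arrays are high and tight for Fos, Egr1, Dusp1 and Hspa1b and low for Klf15 and Kif1b, and combination array 1 (circle) lies apart from arrays 2 and 3 for Fos, Egr1, Dusp1, Hspa1b and Adipoq.

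Some genes had the mirror image, low with training alone and back at the sedentary level with the combination. Klf15, a glucocorticoid-induced factor that drives amino acid and lipid use in muscle, read 359, 351 and 425 with vehicle, 294, 437 and 354 with GW, 169, 195 and 215 with exercise, and 374, 403 and 299 with the combination. The exercise arrays were below all others, and the drug raised Klf15 in trained mice 1.85-fold (adjusted p 0.0489). The interaction was 0.96 (0.47 to 1.46, adjusted p 0.451) and lay between 0.82 and 1.11 when any 1 array was left out.

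Klf15 belongs to the list of proteolysis and atrophy, in which 14 of 18 members tested were positive, with a median of 0.14 and 4 (22.2%, against 7% of all genes) at an unadjusted p under 0.05, all positive. The median was 0.04 over all probe sets of the list and 0.06 with the fat cell score as a covariate. The other 3 were Foxo3, Txnip and Ddit4. Foxo3, a factor that turns on atrophy genes, read 692, 392 and 454 with vehicle, 222, 356 and 350 with GW, 295, 200 and 258 with exercise, and 428, 275 and 272 with the combination in its brighter probe set. Both single treatments were below vehicle. Its interaction was 1.08 (0.34 to 1.81, adjusted p 0.703), while its other, dimmer probe set gave -0.09 (-1.02 to 0.83).

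Txnip, which restrains glucose uptake, read 3186, 3252 and 3178 with vehicle and 2466, 2264 and 2352 with GW. It read 3491, 2723 and 2686 with exercise and 2732, 3608 and 2865 with the combination, so that the GW arrays were below all others. Its interaction was 0.49 (0.16 to 0.83), and 0.67 in the other probe set. Ddit4, an inhibitor of mTORC1, scattered from 168 to 789 among the combination arrays, with an interaction of 1.51 (0.11 to 2.91) that was 0.99 without combination array 1. Foxo1, a factor related to Foxo3, was a drug responder with an additive interaction of 0.04 (-0.41 to 0.50).

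Of 16 circadian clock genes tested, 11 had a positive and 5 a negative interaction. Their median of 0.18 was 0.05 without GW array 1 and 0.30 with the fat cell score, and 2 (12.5%, against 7% of all genes) had an unadjusted p under 0.05. Nr1d1, the repressor REV-ERBα, read 353, 535 and 504 with vehicle, 206, 349 and 210 with GW, 484, 496 and 627 with exercise, and 572, 536 and 367 with the combination. GW arrays lay below vehicle arrays and the trained groups overlapped, with an interaction of 0.75 (0.08 to 1.42, adjusted p 0.727). Hlf, a clock-driven factor, gave 0.67 and 0.85 in its 2 probe sets. The sources used here give no time of day for the collection.

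Contractile genes of slow fibres had a negative interaction in 9 of 9 members tested of 15 listed, with a median of -0.58, but 0 at an unadjusted p under 0.05. Mb, the oxygen store myoglobin, read 5513, 3931 and 3225 with vehicle, 7842, 2804 and 4670 with GW, 8241, 10002 and 7791 with exercise, and 6389, 8300 and 5298 with the combination. Vehicle and GW arrays overlapped, as did exercise and combination arrays. Its interaction was -0.58 (-1.43 to 0.27), and -0.21 without GW array 1. For the list the median without that array was -0.21, and the interaction of Ankrd2 went from -1.60 to -0.06.

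Fast fibre contractile genes were narrower: 16 of 17 were negative, with a median of -0.17, and 14 were additive. At an unadjusted p under 0.05 there were 4 (23.5%, against 7% of all genes), all negative. Myh4, the fastest myosin of mouse muscle, had an interaction of -0.17 (-0.38 to 0.03). Myh1, the myosin of the fibre type between the fastest and the oxidative ones, read 3318, 2151 and 1862 with vehicle, 4334, 1965 and 3225 with GW, 4164, 5032 and 4663 with exercise, and 3136, 3025 and 2458 with the combination. Combination arrays were below all exercise arrays and sedentary arrays spread over both ranges. The interaction of Myh1 was -1.04 (-1.75 to -0.33, adjusted p 0.703), and -0.76 in a second probe set, while the remaining one, near background, gave 0.66 (-1.49 to 2.81). Myosin genes are alike in sequence, and their probe sets may share signal.

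Most genes of the mitochondrial and glycolytic lists were additive. Of 43 oxidative phosphorylation genes tested, 40 were additive, with a median of -0.10 and a range of -0.39 to 0.13. Their median drug effect was 0.09 in sedentary and -0.01 in trained mice. Uqcrc1, a core subunit of complex III, was lowest at -0.39 (-0.68 to -0.10), and Cyc1, cytochrome c1 of the same complex, had -0.31 (-0.54 to -0.08). Of 20 tricarboxylic acid cycle genes 18 were additive, with a median of -0.02 (0.01 without GW array 1 and -0.04 without combination array 1), and Cs, citrate synthase, had 0.06 (-0.15 to 0.26). Of 21 glycolysis and glycogen genes 17 were additive, with a median of -0.10.

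Among 14 regulators of oxidative genes 10 were negative, with a median of -0.24, and 2 (14.3%, against 7% of all genes) had an unadjusted p under 0.05. Ppargc1a, the coactivator PGC-1α, had -0.30 (-1.04 to 0.44) in its brightest probe set, where vehicle array 1 and GW array 1 were the highest arrays, and 0.04 without GW array 1. Vegfa, the growth factor of capillaries, read 261, 232 and 239 with vehicle, 236, 172 and 269 with GW, 295, 301 and 308 with exercise, and 214, 137 and 164 with the combination in its brighter probe set. Combination arrays lay below exercise arrays, and the interaction was -0.70 (-1.24 to -0.16, adjusted p 0.707), with -0.19 (-0.96 to 0.58) in the other probe set. Esrra, a receptor that works with PGC-1α, had -0.47 (-0.88 to -0.07).

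**Figure D5:**
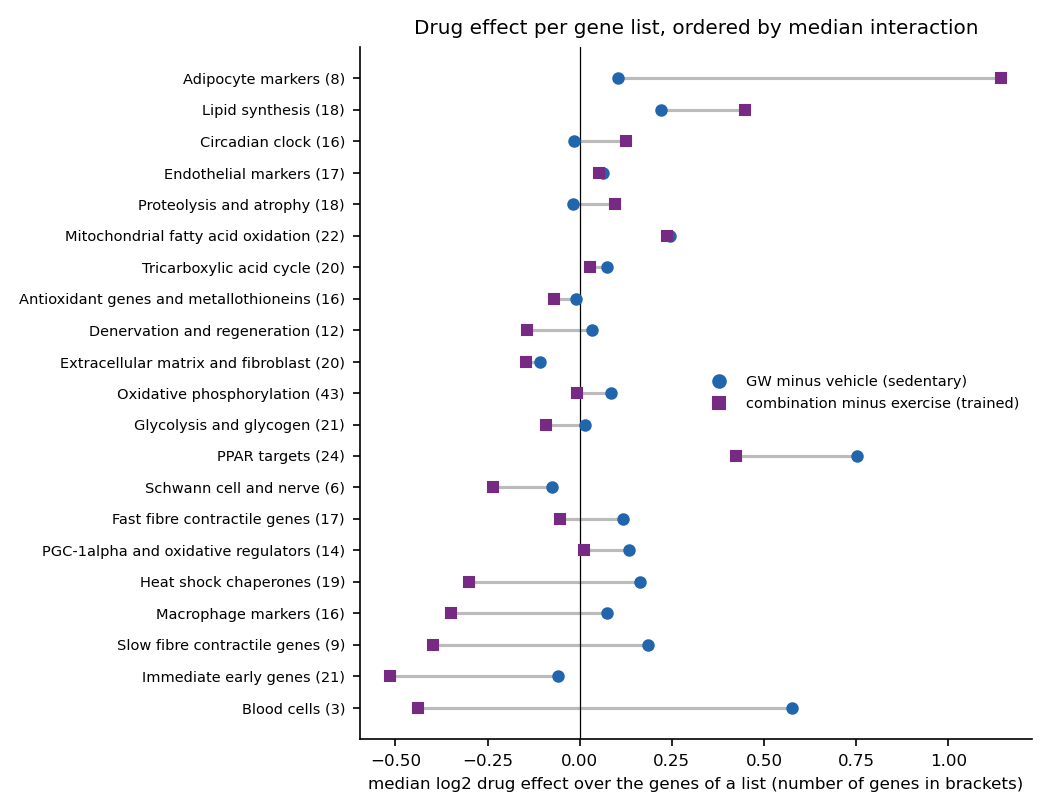
Median drug effect (log2) over the genes of each of 21 lists in sedentary mice (circles, GW minus vehicle) and in trained mice (squares, combination minus exercise), ordered by median interaction; the number of genes tested is in brackets. PPAR targets are positive in both (0.75 and 0.42), fatty acid oxidation has medians close to each other (0.25 and 0.24), fat cell markers are separated most towards trained mice (0.10 and 1.14), and immediate early genes have the lowest median in trained mice (-0.51).

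The other lists described the cells between the fibres and the remaining pathways. Macrophage markers were negative in 15 of 16, with a median of -0.50 and 1 at an unadjusted p under 0.05, Cd68 at -1.84; their median was -0.24 without combination array 1 and -0.86 with the fat cell score as a covariate. Several of these medians had no steady sign. Endothelial markers had a median of 0.16, which was 0.28 without combination array 1 and -0.05 with the fat cell score. Extracellular matrix and fibroblast genes had -0.09, which was -0.04 without GW array 1, 0.10 without combination array 1, and -0.21 both over all probe sets and with the fat cell score. Schwann cell and nerve genes had -0.14, which was 0.03 without GW array 1 and without combination array 1, 0.14 over all probe sets and -0.25 with the fat cell score. Antioxidant genes had -0.07, which was 0.03 without GW array 1, -0.01 without combination array 1 and -0.17 with the fat cell score. In the matrix list Serpinh1, the collagen chaperone, was the 1 member at an unadjusted p under 0.05: it had -0.77 (-1.27 to -0.28), and -1.10 in a second probe set. Denervation and regeneration genes had a median of -0.08 (-0.00 without GW array 1, -0.05 without combination array 1), with Myh3, the embryonic myosin, lowest at -3.68 (-5.56 to -1.80) from signals of at most 122. Blood cell genes had 3 members tested and a median of -1.02 (-0.44 without combination array 1), with Hba-a2, an alpha globin gene, at -1.18, at signals from 14.0 to 66.2. Far brighter globin probe sets, annotated to several genes and so outside the list, did not share this value. An alpha globin probe set gave -0.15 at group means of 3614 to 5898. A beta globin probe set gave -0.06 at group means of 2759 to 4486, and both were additive.

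The smallest interaction p of all belonged to Kpna4, an importin that carries proteins into the nucleus. It read 364, 270 and 262 with vehicle, 478, 355 and 396 with GW, 438, 419 and 428 with exercise, and 246, 184 and 170 with the combination. Combination arrays were below every other array, exercise arrays were above all vehicle arrays, and GW and vehicle arrays overlapped. The drug lowered it to 0.46 in trained mice (adjusted p 0.00948), and the ratio in sedentary mice was 1.38 (adjusted p 0.703). The interaction was -1.58 (-2.08 to -1.08, adjusted p 0.102), and it passed without vehicle array 1, combination array 1 or GW array 2. It also passed with the array numbers as a replicate block (adjusted p 0.0139), with array weights (0.0204) and on the linear scale (0.0498). The second probe set of Kpna4 gave -0.60 (-1.31 to 0.11).

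Next in order were Kif1b and Cd24a. Kif1b, a kinesin motor, read 991, 964 and 1033 with vehicle, 896, 963 and 929 with GW, 681, 620 and 647 with exercise, and 1132, 951 and 987 with the combination. It fell with training alone (adjusted p 0.0469) and rose with the drug in trained mice (adjusted p 0.00592), and exercise arrays were below all others. The interaction of this probe set was 0.75 (0.48 to 1.03, adjusted p 0.158) and passed on the linear scale (adjusted p 0.0498), while its 6 other probe sets ranged from -0.07 to 0.30 with intervals that included 0.

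Cd24a, a cell surface protein of immature and regenerating cells, read 485, 466 and 374 with vehicle, 458, 490 and 539 with GW, 677, 645 and 774 with exercise, and 366, 239 and 359 with the combination. It was highest in the exercise arrays, and the drug lowered it in trained mice (adjusted p 0.00592). Its interaction was -1.31 (-1.80 to -0.83, adjusted p 0.158), with -0.46 and -0.32 in 2 other probe sets whose intervals also excluded 0. The first passed without combination array 1, at -1.42 (adjusted p 0.0484), and on the linear scale (0.0498). Slc25a30, a mitochondrial carrier, gave -1.16, -1.25 and -1.30 in its 3 probe sets, of which 1 passed without combination array 1, at -1.68 (adjusted p 0.0484). Of the genes with the smallest p, Cd24a and Slc25a30 were those whose 3 probe sets all had intervals on one side of 0.

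Several of the rest were reversed in class, and their other probe sets did not share the value. Ccnl2, a cyclin linked to splicing, read 176, 256 and 178 with vehicle, 70.1, 134 and 69.6 with GW, 68.4, 114 and 46.0 with exercise, and 172, 155 and 179 with the combination. Each single treatment was below vehicle, and the combination was above exercise. The interaction was 2.45 (1.52 to 3.38, adjusted p 0.180), with 0.35 and 0.06 in 2 other probe sets. Without GW array 2 it passed, at 2.76 (adjusted p 0.0495).

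Eif2d, a translation factor, gave 1.6002 in one probe set and 0.06 and 0.14 in 2 brighter ones. Ttf1, which ends ribosomal RNA transcription, gave 2.54 and, in a second probe set, 0.03. Mapkap1, a subunit of mTORC2, gave 2.79 at signals under 90 and 0.08 at signals near 500. Fcgr2b, an inhibitory antibody receptor of macrophages and B cells, gave -1.75 in one probe set and -0.52 and -0.03 in others. Over the 72 reversed probe sets, 49 were higher with the drug in sedentary and lower in trained mice, and 23 had the opposite order.

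Serpina1c, an antitrypsin made in liver, had an interaction of 2.25 (1.12 to 3.39, adjusted p 0.451). It read 131, 65.5 and 103 with vehicle, 23.0, 36.4 and 20.4 with GW, 27.3, 35.1 and 27.8 with exercise, and 37.5, 53.0 and 28.2 with the combination, so that vehicle arrays were high and the other 3 groups low. The summed signal of 3 liver markers (Alb, Apoa1 and Ttr) was likewise highest on the vehicle arrays, with another order below them: 217 to 500 on the vehicle arrays, 82.2 to 129 with GW, 30.3 to 91.4 with exercise and 39.3 to 89.6 with the combination. Of the 3, Apoa1, with a mean signal of 15.9, lay below the 95th percentile of the bacterial controls (20.6). The part of liver RNA in this result was not tested.

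Training responders, chosen on the average of both training effects, numbered 2 (0.0147%). Both were additive, both had annotations that name several genes, and they are not named here. Their training effect was smaller under the drug, with a median turned interaction of -0.10. Across all probe sets the training effect without and with the drug had a correlation of 0.05, as a description over probe sets that share arrays.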

How the data were processed

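Mouse quadriceps RNA was measured on 12 Affymetrix arrays. The deposited values are linear signal intensities made by the authors with MAS5, per the submitters' processing notes; the sources used here give no version, and the trimmed mean signal was 199.98 on every array, so each array had been scaled to one target. Here the intensities were log2-transformed with no further scaling. Control probe sets were left out and the upper 60% by mean log2 signal was kept (13575 of 22626, lowest mean signal 28.4). A 4-group model was fitted with limma 3.58.1 in R 4.3.3 (intensity trend), with Benjamini-Hochberg adjustment over all 13575 and moderated 95% intervals. The tests were tried on simulated data first. Each gene in a list is its probe set with the highest mean signal. Symbols come from the platform annotation: 12512 tested probe sets had 1 symbol, and those with several genes are not named. Named genes are drug responders, the 10 positive and 10 negative interactions with the smallest p, up to 4 members of each list with the smallest p, and a set list. Creb3l3, Plin2, Ier5, Hsph1, Hspd1, Hspe1 and Apoc1 were named after their values were seen where they fall outside it. The members, lists and tests were chosen with earlier results of these data known. Alternatives covered normalization, a pseudocount, the filter, the variance model, array weights, an array-number block, fat cell content, the scale, the class limits, the probe set per gene and leaving out each array.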

Additional observations from a re-analysis of the deposited data

How the results depend on the processing

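Of 120 named interactions, 107 kept their sign under every alternative in which their probe set was tested (95 had a value under all 23), and of 2731 such values 36 had the opposite sign, 27 of them with 1 array left out. Interaction calls were 0 as reported and 1 with array weights, 4 on the linear scale, and 0 to 9 with 1 array left out (9 without combination array 1). At an unadjusted p under 0.05 there were 1442 of 22626 with no filter (6.37%). Additive probe sets numbered 390 with a narrower band in place of 1.5-fold, 7857 with 2-fold and 1631 with a 99% interval. Less than additive numbered 323 in the upper 40% by signal, 314 with the fat cell score as a covariate, 273 with a 2-fold band and 118 with a 99% interval. More than additive numbered 1 with quantile normalization, 1 with array weights, 8 with the fat cell score, 5 with the narrower band, and 0 to 9 with 1 array left out. Reversed numbered 38 with a pseudocount of 10.5, 488 with no filter, 8 in the upper 40%, 278 and 14 with the narrower and the 2-fold band, 27 with a 99% interval, and 53 to 146 with 1 array left out (146 without GW array 2). The class called other numbered 115 with the narrower band, 39 with a 99% interval, and 187 to 420 with 1 array left out.

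Drug responders numbered 9 with no intensity trend, 76 with array weights, 25 with the fat cell score, 19 at an adjusted p under 0.01, and 20 to 74 with 1 array left out (20 without combination array 2, 74 without combination array 1). The share with the larger effect in trained mice was 59.2% with array weights, 61.0% on the linear scale, 36.8% at 0.01, and 30% to 74.3% with 1 array left out. Their median turned interaction was 0.22 with the fat cell score and -0.16 to 0.35 with 1 array left out. Drug effects of opposite sign numbered 2 on the linear scale and 0 to 5 with 1 array left out. Training responders numbered 0 with quantile normalization, cyclic loess, no filter, no intensity trend or a threshold of 0.01, 6 with array weights, 21 with the fat cell score, 5 at a threshold of 0.1, and 0 to 23 with 1 array left out. The cause of these shifts was not tested. The list medians without GW array 1, without combination array 1 and with the fat cell score were added after the data were seen.

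Named interactions of the opposite sign were Acaa2 on the linear scale (28.9 signal units), Fbp2 with quantile normalization (-0.031) and cyclic loess (-0.019), and, with the fat cell score, Fbp2 (-0.0047), Slc27a1 (-0.060), Alas2 (-0.15), Fasn (-0.15), Retn (-0.16) and Dnajb1 (1.23). With 1 array left out the ranges that crossed 0 were -0.26 to 0.64 for Alas2, -0.12 to 1.46 for Angptl4, -0.42 to 0.030 for Cat, -0.26 to 0.077 for Dbi, -1.57 to 0.34 for Dnajb1, -0.22 to 0.36 for Dusp10, -0.12 to 0.10 for Fbp2, -0.55 to 0.045 for Ppargc1a, -0.30 to 0.0048 for Slc25a20 and -0.085 to 0.15 for Slc27a1.

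The deviations of same-numbered arrays correlated only weakly, between -0.05 and 0.10 (median 0.01, against -0.01 for arrays of different numbers). Yet 8 of 12 arrays correlated best with an array of their own number, where 18 pairs of arrays shared a number and 36 did not. Whether the array numbers of the labels mark pairs was not tested. With the replicate block the interaction was called at 1 probe set (Kpna4, -1.58, limma adjusted p 0.0139), training responders numbered 0, and drug responders 35. Probe sets of low signal limit the rest, since none in the dimmest of 4 signal bins could be called additive.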
